A study of Homo sapiens with 14 samples.

Results

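The comparison described here is the androgen response of LNCaP cells that carried a control shRNA. It sets the array labelled R1881 against the array labelled hormone-deprived, and the 2 arrays were taken by their sample titles from the 14 arrays of the series. LNCaP is an androgen-sensitive line derived from a prostate cancer metastasis. The study used it to ask which genes the transcription factor FoxA1 controls, by comparing cells with the control shRNA (shCtrl) with cells carrying an shRNA against FoxA1 (shFoxA1). Both arrays stand in a table of 8 Illumina bead arrays of LNCaP shRNA cells, which also holds an R1881 and a hormone-deprived array of shFoxA1 cells and 2 numbered arrays of each shRNA whose titles name no medium. R1881 (methyltrienolone) is a synthetic androgen. Per the labels' protocols, worded alike for all 8 arrays, cells spent 3 days in charcoal-stripped medium, and in some experiments then received 1 nM R1881 for 24 h. The wording does not say that the hormone-deprived cells were left without it; that comes from their titles alone. There was 1 array a side, so every value below describes these arrays, no test was possible, and the spread between cultures in either medium is unknown. The numbered shCtrl arrays are shown beside the pair only as a measure of how far arrays with this shRNA can lie apart. No label says whether they came from separate cultures. In the deposited records the numbered arrays stand in 1 block of samples with the R1881 arrays, and the hormone-deprived arrays stand in another. Where the hormone-deprived array lies apart from the other shCtrl arrays, medium and block therefore cannot be told apart.

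The androgen receptor is a nuclear receptor that waits in the cytoplasm bound to chaperones. Once it binds an androgen it enters the nucleus and binds DNA as a dimer at paired half-sites of the kind AGAACA and TGTTCT, often where FoxA1 has already opened the chromatin. In the prostate luminal cell it switches on secreted proteases of the kallikrein family, enzymes that build lipids and sugars for secretion, and feedback regulators. It also lowers the transcription of a smaller set of genes, among them the UGT2B enzymes that inactivate androgens.

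The labels fitted the measured markers of the line. Of 15 luminal prostate markers with a named probe, 14 were detected on the R1881 array and 13 on the hormone-deprived array, where a probe counts as detected at a detection p-value below 0.05 against the negative controls. FOXA1 was the brightest of them on both arrays, at 11.91 and 12.11 on the log2 intensity scale, so the targeted gene of the study was at a like level in both media. None of 5 basal epithelial markers was detected on either array. Of 10 fibroblast markers 0 and 2 were detected, and of 11 leukocyte and endothelial markers 3 and 4. The brightest of the latter was CD68, a lysosomal protein, at 9.05 and 9.22. The R1881 array was brighter before normalization, with a mean intensity of 285 against 190, and the part of this in the differences was not tested, while the share of detected probes was 41.5% and 42.6%. On the numbered shCtrl arrays that share was lower, at 34.3% and 35.1%.

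After quantile normalization, 11863 named genes were detected on at least 2 of the 8 arrays. Of these, 168 (1.42%) stood 2-fold or more above the hormone-deprived array on the R1881 array and 153 (1.29%) stood 2-fold or more below it, each counted only where the brighter array had detected the gene. The dimmer array did not detect 20 of the higher and 15 of the lower genes, and against its detection limit 5 and 4 of these were under 2-fold, SLC2A3 and LYZ among them. In bulk RNA, fewer cells that express a gene and less RNA of it per cell cannot be told apart. The median log2 difference over all genes was -0.01. The highest was 4.04, for TARP, and the lowest -3.90, for UGT2B17. Between the numbered shCtrl arrays 193 genes (1.63%) were 2-fold apart, against 321 (2.71%) for both directions of the hormone pair. The gap to the numbered shCtrl arrays was wider at large differences. At least 4-fold apart were 31 genes between the media labels, 19 higher and 12 lower with R1881, and 8 between those numbered arrays. The numbered shFoxA1 arrays had 335 genes (2.82%) at 2-fold and 45 at 4-fold, more than the hormone pair. Each numbered pair lies within 1 block of samples, and the hormone pair spans both blocks. Of the 321 genes, 307 differed more between media than between the numbered shCtrl arrays, and 22 were 2-fold apart between those numbered arrays too. As the genes were chosen for a 2-fold difference between media, most had to exceed their numbered difference. The 307 therefore cannot serve as support. Genes near the 2-fold line include MEI1, higher by 1.02 on the log2 scale and just inside it, and BCHE, 1.99-fold lower and just outside. List counts below compare with 1.42% of all genes higher and 1.29% lower.

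**Figure D1:**
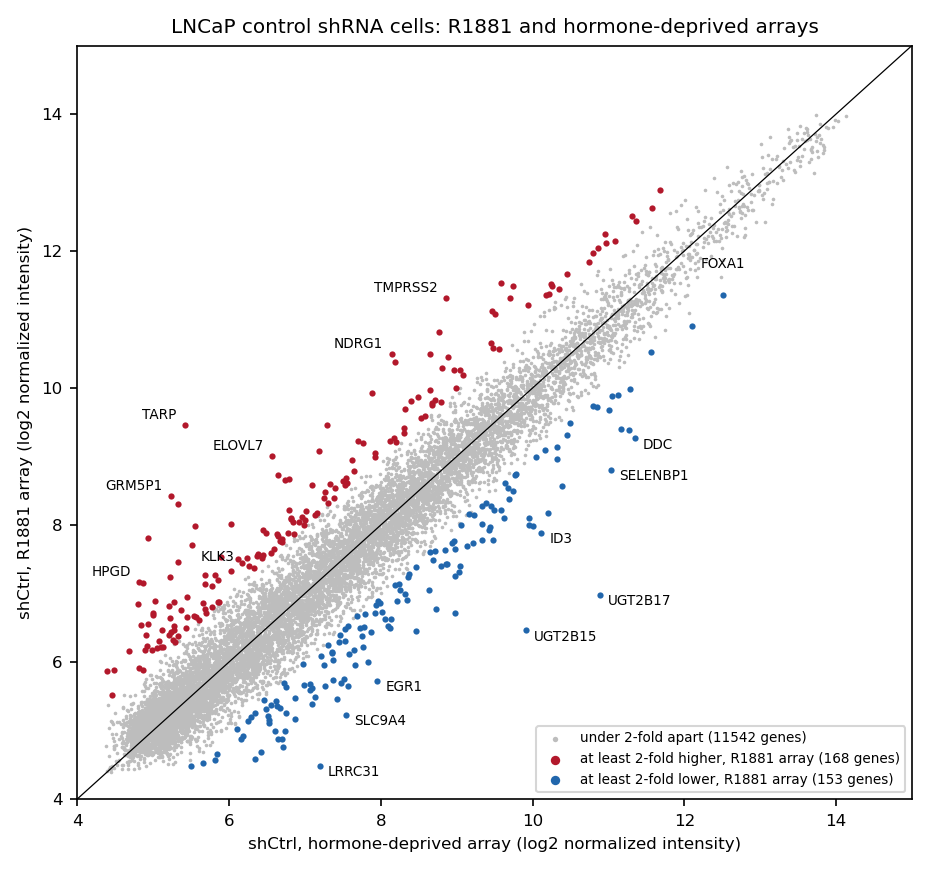
Level of each of 11863 genes on the hormone-deprived array (horizontal) and the R1881 array (vertical) of LNCaP shCtrl cells, both as log2 normalized intensity, with the line of equal levels. The 168 genes in red lie at least 2-fold above it and the 153 in blue at least 2-fold below, with TARP and UGT2B17 farthest from the line.

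**Figure D2:**
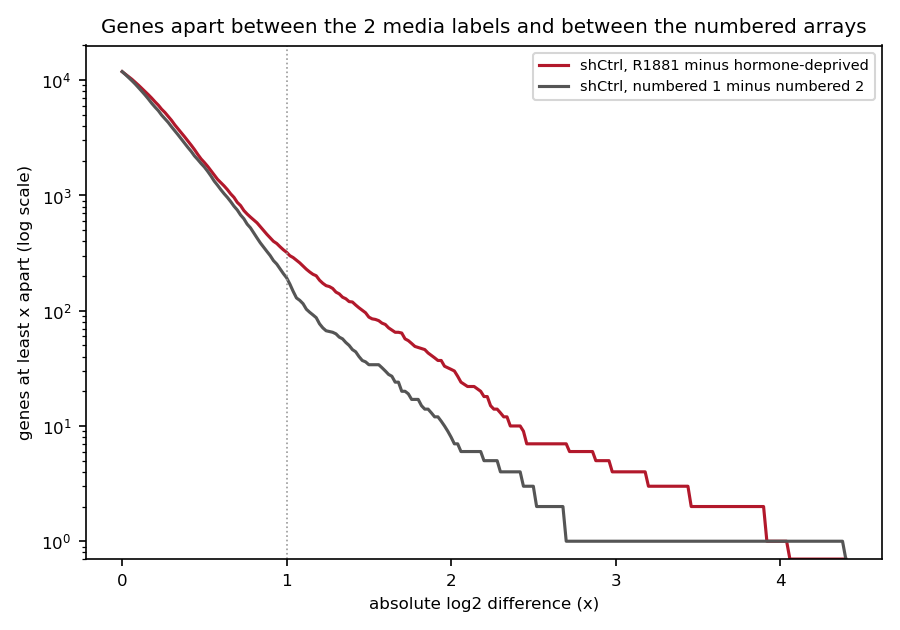
Number of genes (log scale) at least as far apart as the log2 difference on the horizontal axis, for the R1881 and hormone-deprived arrays (red) and for the numbered shCtrl arrays (grey). At the dotted line of 2-fold the curves stand at 321 and 193 genes, and beyond it the red curve stays above the grey except at the far right, where FOS alone extends the grey curve.

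The kallikreins that mark the prostate were higher with R1881. KLK3 encodes prostate-specific antigen, a serine protease of seminal fluid. Its log2 level was 7.71 on the R1881 array, 5.52 on the hormone-deprived array and 7.42 and 7.90 on the numbered arrays, which makes the R1881 level 4.59-fold the hormone-deprived level. KLK2, which cleaves the precursor of prostate-specific antigen, was at 6.69 with R1881 and not detected without it, at least 3.07-fold lower, and at 7.33 and 7.53 on the numbered arrays. KLK4, another protease of the family, was far brighter at 11.49 and 10.26, a 2.35-fold difference, with 11.38 on both numbered arrays. KLK15 was at 5.50 and was not detected without hormone, at least 1.35-fold lower. For all 4 genes the hormone-deprived array was the lowest of the 4 shCtrl arrays, while the R1881 array lay below both numbered arrays for KLK2 and above both for KLK4. The list held 8 kallikreins, not the whole family. Its 4 other members, KLK1, KLK10, KLK11 and KLK12, were not detected on 2 arrays and were not measured. So 3 of the 4 measured members of this list were at least 2-fold higher, against 1.42% of all genes, and none lower. Their median log2 difference was 1.46 over the 4. KLK3, KLK2 and KLK4 lie side by side on chromosome 19, within 4 measured genes.

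The DNA just upstream of KLK3 and KLK2 holds the textbook androgen response element of this family, and it is printed because these neighbours were higher together. Each sequence is the 250 bases before the gene's start, from RefSeq (GRCh38): chr19:50854665-50854914 for KLK3 and chr19:50873189-50873438 for KLK2, both on the plus strand. Capitals mark the 15-base match closest to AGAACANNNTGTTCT, searched on both strands.
KLK3: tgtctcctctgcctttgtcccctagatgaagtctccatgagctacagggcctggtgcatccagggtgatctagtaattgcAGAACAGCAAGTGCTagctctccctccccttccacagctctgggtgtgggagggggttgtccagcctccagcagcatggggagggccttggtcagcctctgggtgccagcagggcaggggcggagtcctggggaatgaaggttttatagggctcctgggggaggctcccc
KLK2: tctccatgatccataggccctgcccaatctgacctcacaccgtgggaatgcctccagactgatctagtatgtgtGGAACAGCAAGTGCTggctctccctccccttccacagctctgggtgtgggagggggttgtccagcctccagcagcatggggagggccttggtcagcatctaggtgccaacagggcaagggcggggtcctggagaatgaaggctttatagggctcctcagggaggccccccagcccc
The match starts at -170 from the start of KLK3, with 2 mismatches in its 12 fixed bases, and at -176 from the start of KLK2, with 3. A match with up to 2 mismatches was present in 1.18% of 35116 RefSeq promoter windows of this length, and one with up to 3 in 9.17%. Among 194 windows of 131 genes that were at least 2-fold higher with R1881, the shares were 1.03% and 8.76%, and among 13657 windows of the measured genes 0.644% and 6.07%. Windows of genes at least 2-fold lower held them at 1.01% and 7.58%. A half-site, AGAACA, was in 12.4% of all windows, 8.57% of those of the measured genes, 8.25% of those of the higher genes and 9.6% of those of the lower ones. These are matches of letters, not measured binding, and the androgen receptor also binds far outside such windows.

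Other direct and well-known androgen genes followed the kallikreins. The list of androgen-activated core genes had 36 members, of which 30 were measured, and 19 of these 30 (63.3%) were at least 2-fold higher, against 1.42% of all genes, and none lower. Their median was 1.19, and 27 of 30 were above 0. KLK2, KLK3 and KLK4 are among these 30 and among the 19 higher, so the counts and the median overlap with those of the kallikreins. TMPRSS2, a membrane serine protease whose androgen-driven promoter is fused to ERG in many prostate cancers, was at 11.31 with R1881 and 8.86 without, 5.49-fold apart, and at 10.82 and 11.64 on the numbered arrays. FKBP5, a co-chaperone that acts in feedback on steroid receptors, was at 10.39 and 8.19, 4.58-fold apart, with 10.33 and 10.70 on the numbered arrays. NDRG1, a growth and stress response gene, was at 10.49 and 8.14, 5.09-fold apart, and at 10.88 and 11.49 on the numbered arrays. SLC45A3, the prostate antigen prostein, was at 10.82 and 8.77, with 10.69 and 10.47 on the numbered arrays. For these 4 genes the hormone-deprived array was the lowest of the 4 shCtrl arrays, and the other 3 lay closer to each other than to it.

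TARP, a transcript of the T-cell receptor gamma locus that prostate cells make under androgen, had the largest difference of all genes. It was at 9.46 with R1881 and 5.42 without, 16.5-fold apart, and at 7.59 and 7.06 on the numbered arrays, which therefore lay between the 2 media labels. PMEPA1, a membrane inhibitor of TGF-beta signalling, was at 9.47 and 7.30, a 4.49-fold difference, and its 2 other detected probes gave log2 differences of 1.64 and 0.61. HPGD, which degrades prostaglandins, was at 7.17 and not detected without hormone, at least 4.27-fold lower. TRPM8, the cold-sensing calcium channel of prostate epithelium, was at 7.24 and 5.23, a 4.03-fold difference. ST6GALNAC1, a sialyltransferase of O-linked glycans, was at 6.85 and not detected without hormone, at least 3.43-fold lower. EAF2 and ELL2, partners in transcription elongation, were 3.95-fold and 3.78-fold higher.

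A few genes of the same list stood apart. ACP3, which encodes prostatic acid phosphatase, was lower with R1881, at 9.50 against 10.24, and lower still on the numbered arrays at 7.14 and 7.85. STEAP2 and STEAP1, related proteins of the prostate cell surface, differed by -0.23 and -0.07. ABCC4, an export pump, was at 11.06 and 10.10, 1.95-fold apart and just under the 2-fold line.

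**Figure D3:**
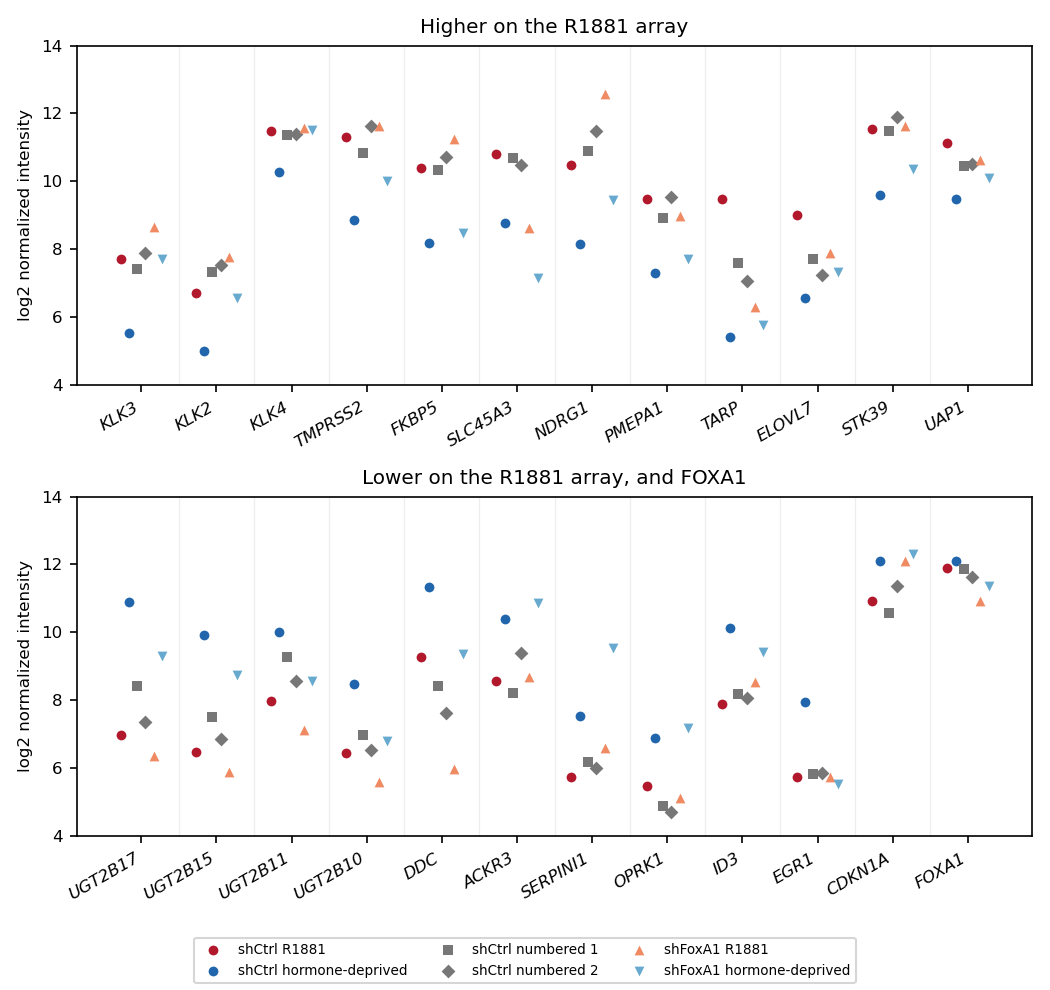
Log2 normalized intensity of 24 genes on 6 arrays: the shCtrl R1881 array (red circles), the shCtrl hormone-deprived array (blue circles), the numbered shCtrl arrays (grey) and the shFoxA1 arrays (triangles). In the upper panel the blue circle is the lowest of the 4 shCtrl symbols for each gene, and in the lower panel it is the highest.

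The broad androgen response list, of 100 genes, gave a smaller and wider shift. It had 87 measured members, 23 of them (26.4%) at least 2-fold higher, against 1.42% of all genes, and none lower, and 71 of 87 were above 0. The median was 0.46 in this pair and -0.15 between the numbered arrays. The list shares 15 genes with the core list, and together they had 103 measured genes, 29 of which were at least 2-fold higher. Those 29 made up 17.3% of all 168 higher genes. STK39, a stress kinase, was at 11.54 with R1881 and 9.58 without, 3.89-fold apart. ELOVL5, which lengthens polyunsaturated fatty acids, was at 11.49 and 9.74, 3.36-fold apart. UAP1, which makes UDP-N-acetylglucosamine, was at 11.13 and 9.47, 3.14-fold apart. CENPN, a centromere protein, was at 11.08 and 9.51, 2.98-fold apart. The numbered arrays read 11.47 and 11.90 for STK39, 10.01 and 10.47 for ELOVL5, 10.44 and 10.50 for UAP1 and 11.21 and 11.37 for CENPN. For ELOVL5 and UAP1 they lay between the media labels, and for CENPN above both. SPDEF, an ETS factor of luminal cells, was 2.88-fold higher, and the retinaldehyde dehydrogenase ALDH1A3 2.81-fold higher. At the other end ADAMTS1, a matrix protease, differed by -0.59 and KRT8, a luminal keratin, by -0.53. SCD, INSIG1 and CCND1, which often appear in androgen signatures, differed by 0.05, -0.04 and -0.03.

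Androgen-repressed genes formed the other pole, led by the UGT2B enzymes. These enzymes attach glucuronic acid to androgens and so end their action. UGT2B17 was at 6.98 with R1881 and 10.88 without, a log2 difference of -3.90, and at 8.42 and 7.37 on the numbered arrays. UGT2B15 was at 6.46 and 9.91, 10.9-fold apart, and at 7.50 and 6.87 on the numbered arrays. Further probes of UGT2B17 differed by -3.80 and -3.12 and another of UGT2B15 by -2.06. The second probe of UGT2B11 differed by -0.70. UGT2B11 was at 7.98 and 10.01 and UGT2B10 at 6.45 and 8.47, 4.07-fold and 4.06-fold apart. UGT2B28 differed by -0.51, and here the numbered arrays, at 8.55 and 8.20, were above both. In the 4 genes at least 2-fold lower the hormone-deprived array was the highest of the 4 shCtrl arrays. They neighbour each other in the RefSeq order of measured genes and their sequences are close to identical over long stretches, so part of the signal of a probe may come from another member.

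Repressed genes outside that family were also lower. DDC, which makes dopamine and serotonin from their precursors, was at 9.27 with R1881 and 11.35 without, 4.22-fold apart, with 8.41 and 7.62 on the numbered arrays. ACKR3, a scavenging chemokine receptor, was at 8.57 and 10.39, 3.53-fold apart, with 8.20 and 9.40 on the numbered arrays. SERPINI1, the protease inhibitor neuroserpin, was at 5.75 and 7.52. OPRK1, the kappa opioid receptor, was at 5.47 and 6.88. CAMK2N1, an inhibitor of the kinase CaMKII, was 2.05-fold lower. In all, 9 of 14 measured members of the androgen-repressed list were at least 2-fold lower, against 1.29% of all genes, none was higher, and 13 of 14 were below 0, with a median of -1.59. The exception was FOLH1, prostate-specific membrane antigen, at 10.83 and 10.26, a difference of 0.57, and its second probe gave -0.06. MET, the hepatocyte growth factor receptor, differed by -0.35.

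Of 14 measured luminal prostate markers, 6 were at least 2-fold higher, against 1.42% of all genes, and none lower. The median was 0.35, and 0.13 over the 13 detected on both arrays. The 6 higher markers were TMPRSS2, KLK3, SLC45A3, TRPM8, KLK2 and SPDEF. KRT8 differed by -0.53 and FOXA1 by -0.20. Of the other steroid enzymes, AKR1C2, which reduces dihydrotestosterone, was lower at 5.21 against 6.13. The steroid list as a whole had 4 of 16 measured genes at least 2-fold lower, against 1.29% of all genes. All 4 were UGT2B genes, none of the list was higher, and its median was -0.35. Of 16 measured cofactors and partners of the androgen receptor 1 was higher, SPDEF, and 1 lower, NCOA1, a coactivator, at 8.14 against 9.22. Their median was -0.10. EP300, a histone acetyltransferase, differed by 0.98 and GATA2, a pioneer factor of the prostate, by -0.53.

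Lipid genes differed unevenly. Among 19 measured genes of fatty acid synthesis and activation, 2 elongases were at least 2-fold higher and none was lower. ELOVL7, which makes very long saturated chains, was at 9.01 with R1881 and 6.56 without, 5.45-fold apart, with 7.71 and 7.23 on the numbered arrays, and the other was ELOVL5. FASN, the fatty acid synthase, was at 11.25 and 11.60, a difference of -0.35. In this list 16 of 19 genes were above 0 and the median was 0.29. None of 19 measured sterol synthesis genes was 2-fold apart, the median was -0.07, and the extremes were TM7SF2, a sterol reductase, at -0.83 and HSD17B7 at 0.64.

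Among sugar and secretion genes, a pair of glycosylation enzymes passed the 2-fold line. UAP1 and ST6GALNAC1 were the 2 of 15 measured hexosamine and glycosylation genes at least 2-fold higher, and the list median was 0.10, with 10 genes above 0 and 5 below. Of 19 measured secretory pathway genes none was 2-fold apart, yet 18 were above 0, with a median of 0.38 against 0.09 between the numbered arrays. The largest was SSR3, a subunit of the translocon-associated complex, at 0.76, followed by SEC24D, a coat protein of vesicles leaving the endoplasmic reticulum, at 0.66. The unfolded protein list had no member 2-fold apart and a median of 0.15, with 0.95 for the disulfide isomerase PDIA4 and -0.99 for the phosphatase regulator PPP1R15A. The polyamine and prostatic metabolism list also had none of 13 at 2-fold, with OAT, ornithine aminotransferase, at 0.89 and SMS, spermine synthase, at 0.66, and a median of 0.24.

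Transport and energy genes held some larger differences. SLC43A1, a transporter of neutral amino acids, was at 6.64 and 5.23, 2.67-fold apart, and SLC1A5, the glutamine carrier, at 8.12 and 6.96, 2.23-fold apart. These were the 2 of 10 measured amino acid transporters past the line, against 1.42% of all genes higher, and the list median was 0.11. The list of 24 glycolysis and hypoxia genes had 4 members at least 2-fold higher and 1 lower, against 1.42% and 1.29% of all genes, with a median of 0.37. HK2, the hexokinase that commits glucose to glycolysis, was at 7.89 and 6.49, 2.64-fold apart, and the numbered arrays read 8.08 and 7.96. The other higher genes were NDRG1, ANKRD37 at 1.11 and the glucose carrier SLC2A3. SLC2A3 was not detected without hormone, and against that array's detection limit it was only at least 1.36-fold higher, so its place past the line is uncertain. ADM, the vasodilator peptide adrenomedullin, was lower, at 5.96 against 7.67. None of 18 oxidative phosphorylation genes was 2-fold apart, and their median was -0.07.

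Cell cycle genes were mostly above 0, and they also differed between the numbered arrays. All 24 measured G1/S and replication genes were above 0, with a median of 0.58 and none at 2-fold, and the numbered arrays differed by a median of 0.33 in the same genes. MCM10, a replication initiation factor, was the farthest at 0.96, followed by RRM2, a subunit of ribonucleotide reductase, at 0.92. Of 32 G2/M and mitosis genes 31 were above 0, with a median of 0.54 against 0.50 between the numbered arrays. The 3 at least 2-fold higher, against 1.42% of all genes, were the spindle checkpoint kinases TTK and BUB1 and the cytokinesis kinesin KIF23. They differed by 1.13, 1.11 and 1.03, but a second probe of KIF23, detected on both arrays, differed by only 0.23. TTK was at 8.05 with R1881, 6.92 without, and 8.11 and 7.61 on the numbered arrays. CDKN1A, the CDK inhibitor p21, was lower with R1881, at 10.91 against 12.10, and the numbered arrays read 10.57 and 11.38. It was the only 1 of 11 measured CDK inhibitors and D cyclins past the line, and the list median was -0.07. Ribosome biogenesis genes had 18 of 19 above 0 with a median of 0.26 and none at 2-fold. Cytosolic ribosomal proteins had a median of -0.02 and none at 2-fold.

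Signalling genes were lower in a few sharp cases. The ID proteins, which block basic helix-loop-helix factors and are targets of BMP signalling, were all lower. ID3 was at 7.89 with R1881 and 10.11 without, 4.68-fold apart, and at 8.18 and 8.06 on the numbered arrays. ID1 was at 7.41 and 9.05, with a second probe at -0.79, and at 7.94 and 7.87 on the numbered arrays. ID2 was at 8.02 and 9.33, but the numbered arrays, at 6.90 and 7.92, were themselves 2-fold apart. In the shFoxA1 pair ID3, ID1 and ID2 differed by -0.88, -0.19 and 0.28. In shCtrl cells the 15 measured genes of the TGF-beta, BMP and WNT list held 1 higher gene, PMEPA1, and the 3 lower ID genes. The list median was 0.02, and of all genes 1.42% were higher and 1.29% lower. IGFBP3, which binds insulin-like growth factors, was at 5.99 and 7.84, and its second probe gave -1.72. It was the only 1 of 12 growth factor and IGF genes past the line, and their median was -0.04.

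Some immediate early genes were lower too, and several also differed between the numbered arrays. EGR1, a growth factor induced zinc finger factor, was at 5.72 with R1881 and 7.95 without, 4.69-fold apart, and at 5.83 and 5.87 on the numbered arrays. FOS, a subunit of AP-1, was at 7.31 and 9.03, but the numbered arrays read 4.77 and 9.17. KLF6, a zinc finger factor, and FOSB, another AP-1 subunit, differed by -1.32 and -1.13, with 6.92 and 7.96 for KLF6 and 4.65 and 6.61 for FOSB on the numbered arrays. These 4 of 19 measured genes were at least 2-fold lower, against 1.29% of all genes, and none was higher, with a list median of -0.32. Between the numbered arrays 5 of the 19 were 2-fold apart and the median was -0.66.

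Neuronal and damage response genes gave smaller counts. TUBB3, a neuronal tubulin, was at 7.78 and 9.48, 3.26-fold apart. With DDC it made the 2 of 7 measured neuroendocrine genes at least 2-fold lower, against 1.29% of all genes. The list median was -0.28. Of 18 p53 targets 3 were lower and 1 higher, against 1.29% and 1.42% of all genes, with a median of -0.17. The lower ones were SESN1, a stress-induced inhibitor of mTORC1, at 8.22 against 9.59, TP53INP1 at 9.89 against 11.05, and CDKN1A. The higher one was ZMAT3, at 12.63 against 11.57, but the median over its detected probes was -0.43. The chemokines CCL20 and CXCL8 were the 2 of 10 NF-kB genes past the line, 2.43-fold and 2.07-fold lower, against 1.29% of all genes. CXCL8 read 5.20 and 7.08 on the numbered arrays, and its second probe differed by -0.11. That list's median was 0.13.

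Several lists had few or no genes past the 2-fold line. None of 21 interferon genes was 2-fold apart and the median was 0.03, although 11 of them were 2-fold apart between the numbered arrays, with a median of -1.01. All 6 measured metallothioneins, which bind zinc and copper, were below 0, with a median of -0.44 and none at 2-fold, and 2 were 2-fold apart between the numbered arrays. Among 16 genes shared with glucocorticoid and progestin responses 2 were higher, FKBP5 and ERRFI1, an inhibitor of EGF receptor signalling that was 2.59-fold higher, and the median was 0.21. Epithelial junction and keratin genes had KRT19 higher and DSC2, desmocollin 2, lower, both past 2-fold, with a median of -0.08 over 18. None of 8 mesenchymal genes or of 14 housekeeping genes was 2-fold apart, with medians of -0.30 and -0.09. The 3 measured fibroblast markers had a median of -0.14, and the 5 leukocyte and endothelial markers -0.17, with LYZ, lysozyme, not detected with R1881 and at least 1.67-fold lower there. No basal marker was measured. With values scaled to the array median in place of quantiles, the median of all genes moved to 0.32. Relative to it, the sign of the list median turned for androgen receptor partners, sterol synthesis, oxidative phosphorylation, CDK inhibitors, TGF-beta, BMP and WNT signalling, NF-kB, epithelial and housekeeping genes, whose medians ran from -0.10 to 0.13 with quantile normalization. Under cyclic loess it also turned for TGF-beta, BMP and WNT signalling and for NF-kB.

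**Figure D4:**
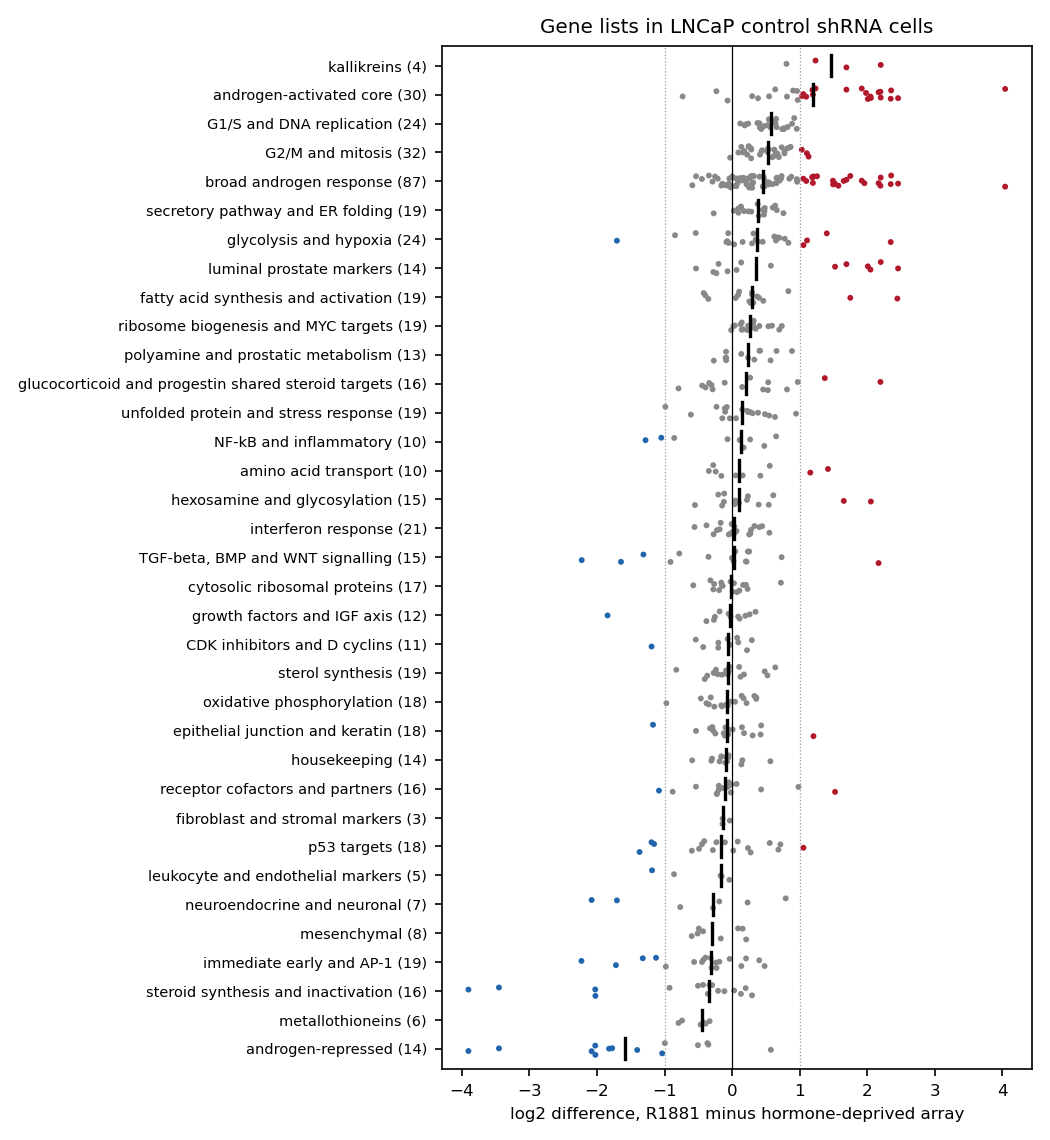
Log2 difference (R1881 minus hormone-deprived array) of each measured member of 35 gene lists, with the number of members in brackets, a black bar at the list median and dotted lines at 2-fold. Kallikreins and androgen-activated core genes stand at the top with medians of 1.46 and 1.19, androgen-repressed genes at the bottom with -1.59, and the cell cycle lists lie as narrow bands above 0.

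Most genes past the line belonged to no list: 128 of the 168 higher and 126 of the 153 lower. Among the largest were genes of a primate gene cluster. GRM5P1, a pseudogene, was at 8.42 with R1881 and 5.23 without, 9.11-fold apart, and at 6.96 and 7.13 on the numbered arrays. TRIM49D1 was at 8.30 and 5.33, 7.85-fold apart, with 6.95 and 7.37 on the numbered arrays, and TRIM49D2 was at 7.81 and not detected without hormone, at least 6.68-fold lower. TRIM48 and TRIM51 were 5.41-fold and 4.14-fold higher. The TRIM49 genes are near-identical copies, and the genes above lie in 2 runs of 3 neighbours in RefSeq order, GRM5P1, TRIM48 and TRIM51 in 1 and TRIM49D1, TRIM49D2 and TRIM49C in the other, so which copy gave the signal is uncertain.

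A pair of zinc finger genes was among the 98 of 168 higher genes that were highest on the R1881 array of all shCtrl arrays. ZNF735 was at 7.15 there, not detected without hormone, and at 4.76 and 5.10 on the numbered arrays, at least 4.23-fold lower without hormone. ZNF679 was at 8.73 and 6.65, with 7.17 and 6.96 on the numbered arrays. TENM1, a teneurin of the X chromosome that acts in cell adhesion, was at 7.47 and 5.33, 4.41-fold apart.

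Some genes were high on the hormone-deprived array alone of the shCtrl arrays. LRRC31 was at 7.19 there and not detected with R1881, at least 4.28-fold lower, and at 4.57 and 4.50 on the numbered arrays. SLC9A4, a sodium-proton exchanger, was at 5.23 with R1881 and 7.54 without, with 4.66 and 4.76 on the numbered arrays. SATL1 was at 5.47 and 7.42, with 4.63 on both numbered arrays. SELENBP1, a selenium-binding protein that oxidizes methanethiol, was at 8.81 and 11.03, with 9.29 and 9.54. CD24, a cell surface glycoprotein, was at 6.72 and 8.97, with 6.53 and 7.49. LTN1, the ubiquitin ligase of stalled ribosomes, was at 8.18 and 10.20, with 7.20 and 7.16. NIPSNAP3A differed by -1.96, and is followed in RefSeq order by ABCA1, SLC44A1 and TMEM38B, which were also at least 2-fold lower. GPER1, a membrane receptor for oestrogen, was at 6.78 and 8.73, and its other detected probes differed by -2.06 and -0.17. In these genes the numbered arrays lay nearer to the R1881 array, with which they share a block of samples. In the shFoxA1 pair SATL1, GPER1 and LRRC31 differed by only -0.40, -0.47 and -0.72. SLC9A4, SELENBP1, CD24, LTN1 and NIPSNAP3A were at least 2-fold lower in that pair too.

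Across all 153 lower genes the hormone-deprived array was above both numbered arrays on 151, against 4597 of all 11863 genes. The R1881 array was below both numbered arrays on 54 of them and above both on 63. Of the 168 higher genes 140 had the hormone-deprived array below both numbered arrays, against 4906 of all genes, and 98 had the R1881 array above both, against 4280. Since the genes were chosen on the hormone-deprived and R1881 arrays, 1 of these had to be extreme more often than among all genes. These counts have no test. The numbered arrays share a block of samples with the R1881 array, so medium and block cannot be told apart in the counts. Over all genes the levels on the hormone-deprived array correlated with those on the numbered arrays at 0.955 and 0.954, and those on the R1881 array at 0.969 and 0.964 (Pearson's r across genes, which are not independent). The R1881 and hormone-deprived arrays correlated at 0.978, above the value of either with a numbered array. The numbered arrays correlated with each other at 0.983.

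The shFoxA1 arrays under the same labels give a second, separate R1881 and hormone-deprived pair, also 1 array a side. In the deposited records both R1881 arrays stand in 1 block of samples, with the numbered arrays, and both hormone-deprived arrays in another. So medium and block cannot be told apart in either pair, and the pairs may share a difference between blocks. Across genes the levels on the hormone-deprived arrays of shCtrl and shFoxA1 cells correlated at 0.983, and those on the R1881 and hormone-deprived arrays of shCtrl cells at 0.978. FOXA1 was at 10.92 and 11.37 there. In that pair 139 genes (1.17%) stood 2-fold or more above the hormone-deprived array and 196 (1.65%) below it. Of the 168 genes higher in shCtrl cells, 42 were also at least 2-fold higher in shFoxA1 cells, which is 25.0% of the shCtrl list and 30.2% of the shFoxA1 list, and 144 had the same sign. Of the 153 lower genes 73 were shared, 47.7% and 37.2% of the lists, and 148 had the same sign. The median difference of the higher genes was 1.21 in shCtrl, on which they were chosen, and 0.51 in shFoxA1, and of the lower genes -1.32 and -0.98. Across all genes the log2 differences of the 2 pairs had a Pearson r of 0.53. No difference between the pairs was tested, and genes picked for a large value in 1 pair tend to be nearer to 0 in another.

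Some androgen genes differed as much in either pair and others did not. FKBP5 differed by 2.19 in shCtrl and 2.79 in shFoxA1 cells, NDRG1 by 2.35 and 3.14, EAF2 by 1.98 and 2.75, and TENM1 by 2.14 and 2.63. TARP differed by 4.04 and 0.53, ELOVL7 by 2.45 and 0.57, and GRM5P1 by 3.19 and 0.53. KLK3 differed by 2.20 and 0.93, and its level without hormone was 5.52 in shCtrl and 7.71 in shFoxA1 cells, so that the shFoxA1 cells without R1881 were as high as the shCtrl cells with it. KLK4 showed the same order, at 10.26 and 11.50 without hormone and 11.49 and 11.56 with it. The androgen-activated core list had a median of 1.19 in shCtrl and 0.52 in shFoxA1 cells, and the androgen-repressed list -1.59 and -1.77. Of the repressed genes DDC differed by -2.08 and -3.36 and SERPINI1 by -1.78 and -2.96, against -3.90 and -2.96 for UGT2B17. EGR1 differed by -2.23 and 0.21, since it was high on the shCtrl hormone-deprived array alone of the 4. The G2/M list had a median of 0.54 and 0.08.

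**Figure D5:**
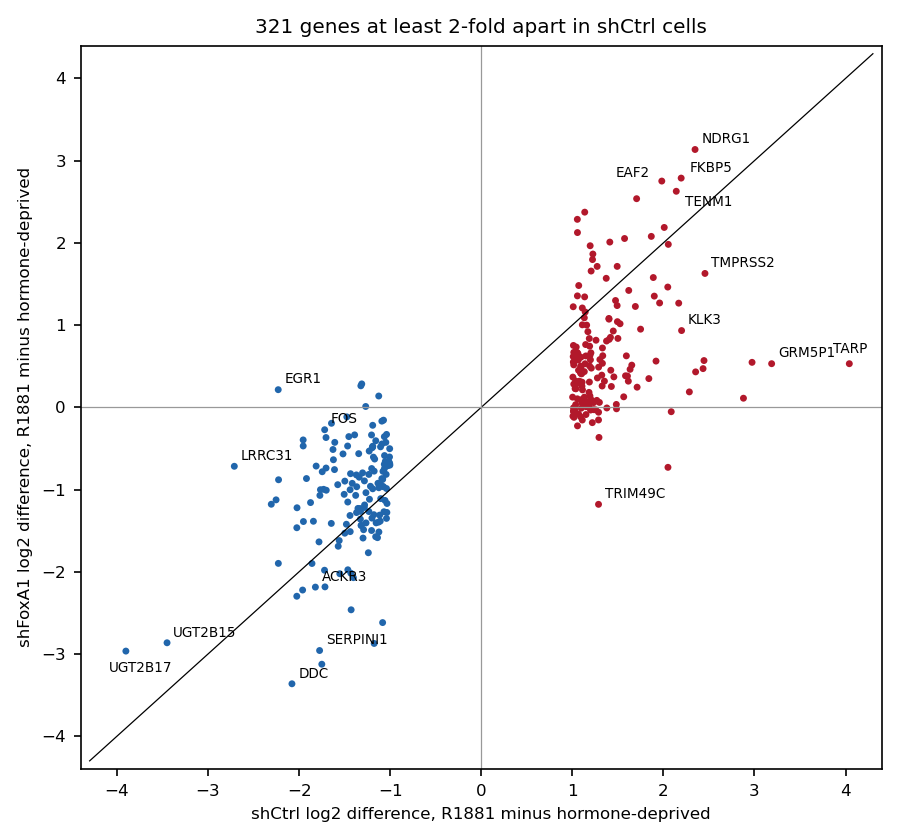
Log2 difference, R1881 minus hormone-deprived, in shCtrl cells (horizontal) and shFoxA1 cells (vertical) of the 321 genes at least 2-fold apart in shCtrl cells, with the line of equal differences. Red points, higher in shCtrl, spread from the line down to 0, as TARP at 4.04 and 0.53 shows, while most blue points, lower in shCtrl, lie below 0 in both.

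Other probes of the same genes give a check within the arrays. The 321 genes had 150 further detected probes on 121 of them, of which 129 (86.0%) had the sign of the probe used and 41 were 2-fold apart as well. The same sign was found for 52 of 69 probes of higher genes and 77 of 81 of lower genes. Of the same sign and 2-fold apart as well were 15 of the 69 and 26 of the 81. The widest gaps between probes were for TDP1, at 1.27 and -0.58, MINDY1, at 1.42 and -0.42, MBTD1, at 1.48 and -0.30, DENND1B, at -1.47 and 0.24, and GPER1, at -1.96 and -0.17. The genes whose probes had opposite signs are uncertain, while for GPER1 the remaining probe gave -2.06. Of 6288 detected probes that the annotation does not name, 73 (1.16%) were at least 2-fold higher and 67 (1.07%) lower. A medium effect cannot be told apart from any other difference between the 2 arrays, such as the day of culture or labelling, which the labels do not give.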

How the data were processed

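Total RNA of the LNCaP shRNA cells was read on Illumina bead arrays and processed in GenomeStudio, per the submitters' processing notes, which give no version. The deposited table of the 8 arrays held probe intensity after background subtraction, not normalized between arrays, with a detection p-value per probe, per the file headers. The authors' deposited value matrix, linear intensity quantile normalized in sets of arrays, served as an alternative.

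The background of each array was inferred from the detection p-values, corrected by the normal-exponential method with an offset of 16 and quantile normalized on the log2 scale over the 8 arrays (limma 3.58.1, R 4.3.3). Deposited intensity became log2 intensity in this step. Bead numbers per probe were not given, so the number of arrays limits the precision. Of 47316 probes, 30109 carried 1 gene symbol, 8 several and 17199 none, which gave 20044 named genes. Gene IDs of 30070 probes were found in RefSeq, and 0 symbols changed. The brightest probe stood for a gene, and genes detected on at least 2 of 8 arrays were kept. A gene was counted when its levels were 2-fold or more apart and its brighter array detected it. Where the dimmer array did not detect the gene, the fold against its detection limit is given as "at least". Only the 2-fold cut was tried on simulated data. These left out the dimmer probes, the detection rule and the choice of probe, and had less noise than the numbered pairs. They do not check the counts.

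The genes named were KLK3, KLK2, KLK4, TMPRSS2, FKBP5, SLC45A3, UGT2B15, UGT2B17, FOLH1 and FOXA1, the 15 largest differences each way that kept their sign in the deposited matrix and without background correction, up to 6 members of each list, the 10 genes that differed most from the shFoxA1 pair and the 5 with the widest gap between probes. Other list members, MEI1 and the neighbouring genes were chosen after their values were seen. Some further genes of the rule are not reported here. The 36 lists held 705 genes, 650 with a named probe and 527 measured. The comparison, members and lists were chosen with earlier results of these data known.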

Additional observations from a re-analysis of the deposited data

Results flagged for a closer look

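TRIM49C, a member of the TRIM49 gene cluster, was, by its brightest probe, the only gene at least 2-fold apart in opposite directions in the 2 pairs. Its log2 difference, R1881 minus hormone-deprived, was 1.29 in shCtrl cells and -1.18 in shFoxA1 cells. Its levels were 7.52 and 6.23 in shCtrl cells and 6.10 and 7.28 in shFoxA1 cells. A second probe, detected on both shCtrl arrays, differed by -0.25 there, and the median over both probes was 0.52, under the 2-fold line. The difference between the pairs was not tested, each group being 1 array, and near-identical copies may share the probe's signal.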

How the results depend on the processing

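The counts of genes past 2-fold, 168 above and 153 below, depended on how low intensities were treated. Without background correction they were 277 and 268, with an offset of 50 they were 93 and 91, and in the deposited matrix 279 and 278. Median scaling, which put the R1881 array above the other by 0.32 at the median gene, gave 678 and 101, so 87.0% of the calls were higher, and a median of 0.90 for the broad androgen response list in place of 0.46. At 1.5-fold the counts were 675 and 680 and at 3-fold 36 and 41. Under cyclic loess (216 and 169), normalization of 4 or of 2 arrays (165 and 166, 192 and 188), no filter (169 and 156), detection on both arrays (148 and 138), a detection p below 0.01 (165 and 150) and the median over probes (141 and 130) they stayed within 1.5 times. Of 72 named genes past 2-fold, 47 were past it under all 11 alternatives that could give a value. The sign turned under the median over detected probes for ZMAT3 (-0.43, from 1.06) and TDP1 (-0.34, from 1.27), whose probes disagree. Without a filter on dim probes, the medians of the neuroendocrine and interferon lists changed sign, to 0.06 and -0.01, and that of the TGF-beta, BMP and WNT list was just below 0. Over genes detected on both arrays the latter was -0.18 and the NF-kB median -0.07, and at a detection p below 0.01 the growth factor and IGF median was 0.03. No paired analysis was possible because the result comes from no test and each side is 1 array.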
